A study of Mus musculus with 4 samples.

Results

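Olfactory receptor promoters were taken as all promoters whose gene name in the array files is Olfr followed by digits only, and there were 868 of them among 18354 promoter names. They lay on 17 chromosomes and were covered by 19289 probes, of which 19282 were used. Of the 868 names, 824 had at least 5 probes (median 24, range 5 to 49) and are described below, while 44 had fewer. Names were chosen by their letters alone and not by a measured value, though the rule was set with earlier results of these data known.

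The arrays measured Ring1B, which ubiquitinates histone H2A as part of Polycomb repressive complex 1 (PRC1), by chromatin immunoprecipitation in primary mouse embryonic fibroblasts of strain C57BL/6. The fibroblasts came from embryos of day 12.5, were used at passage 2, and carried either wild-type Phc2 or the Phc2 L307R change on both alleles. Phc2 belongs to PRC1 and polymerises through its SAM domain. Each promoter sat on 1 of 2 array designs and was hybridised once per genotype, with input DNA in Cy3, the Ring1B immunoprecipitate in Cy5 and no dye swap, so there is no error between cultures and no p-value. By its title the study links that polymerisation to PRC1 clusters in the nucleus and to gene silencing, and the comparison here gives the receptor family's Ring1B signal in both genotypes. The labels do not say how many embryos or cultures went into an array, and the genotype and cell type rest on the labels alone, since DNA arrays carry no expression markers.

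Olfactory receptors are G protein-coupled receptors that bind odorants on sensory neurons of the nose. They form the largest gene family of the mouse and stand in clusters along the genome, and a mature sensory neuron expresses a single allele of a single receptor gene while the others stay silent. In fibroblasts the family is mostly silent. PRC1 is best known for silencing developmental regulators with CpG-rich promoters, and receptor promoters are mostly poor in CpG.

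The promoter sequences show this contrast. RefSeq windows of 300 bases (250 before to 50 after the annotated gene start, build GRCm38.p6) were matched for 730 of the 868 names, and 691 of the 824 with at least 5 probes (83.9%). The 729 windows of these receptors had a median GC content of 35.3% and a median of 1 CpG, and 238 of them (32.6%) held none. Over all 32841 RefSeq windows the medians were 52.7% and 7 CpG, and 5.42% held none. At least 10 CpG were found in 2 receptor windows (0.274%) and in 43.5% of all windows. Of 861 receptor records with a length, 608 were at most 1000 bases long, about the size of the coding sequence. Their annotated start is thus taken to be the coding start and not a mapped transcription start. Longer records can start there too. In the windows of Olfr365 (record of 9277 bases) and Olfr1275 (2541 bases), printed below, ATG stands at the annotated start, so record length does not mark mapped starts. The 5 receptor windows below were chosen for the values given later, and Isl1, a LIM homeobox gene, is the contrast of a promoter with strong Ring1B enrichment. Each is written 5′ to 3′ on the strand in parentheses, with CpG in capitals.

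Olfr365, chr2:37200993-37201292 (+): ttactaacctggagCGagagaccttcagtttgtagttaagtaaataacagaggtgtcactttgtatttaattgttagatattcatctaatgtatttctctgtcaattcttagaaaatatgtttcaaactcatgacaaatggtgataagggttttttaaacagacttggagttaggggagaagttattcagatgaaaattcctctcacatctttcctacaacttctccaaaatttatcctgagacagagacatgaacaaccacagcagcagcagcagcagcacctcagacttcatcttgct
Olfr1275, chr2:111231742-111232041 (-): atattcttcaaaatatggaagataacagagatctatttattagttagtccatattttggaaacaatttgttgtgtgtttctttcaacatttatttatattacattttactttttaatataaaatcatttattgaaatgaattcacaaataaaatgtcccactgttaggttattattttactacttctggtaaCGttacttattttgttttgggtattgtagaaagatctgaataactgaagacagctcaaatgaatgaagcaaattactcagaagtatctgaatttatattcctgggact
Olfr913, chr9:38592553-38592852 (+): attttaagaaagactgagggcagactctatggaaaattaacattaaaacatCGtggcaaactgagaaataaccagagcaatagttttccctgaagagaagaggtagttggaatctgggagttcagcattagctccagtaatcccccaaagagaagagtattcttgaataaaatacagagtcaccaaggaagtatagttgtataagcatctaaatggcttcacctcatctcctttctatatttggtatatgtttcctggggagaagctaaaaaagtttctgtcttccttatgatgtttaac
Olfr16, chr1:172956518-172956817 (+): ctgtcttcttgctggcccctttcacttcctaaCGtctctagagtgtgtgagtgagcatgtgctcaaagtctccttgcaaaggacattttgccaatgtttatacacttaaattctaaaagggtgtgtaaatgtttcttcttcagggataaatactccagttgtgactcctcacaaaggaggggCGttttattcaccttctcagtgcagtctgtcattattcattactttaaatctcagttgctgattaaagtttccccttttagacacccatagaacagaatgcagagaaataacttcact
Olfr544, chr7:102488258-102488557 (-): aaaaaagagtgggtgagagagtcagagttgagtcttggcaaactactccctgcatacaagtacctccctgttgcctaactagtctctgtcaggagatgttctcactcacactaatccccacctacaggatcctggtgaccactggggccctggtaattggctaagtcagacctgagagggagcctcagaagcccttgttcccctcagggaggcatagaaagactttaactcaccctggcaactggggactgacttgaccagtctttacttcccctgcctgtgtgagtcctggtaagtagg
Isl1, chr13:116309639-116309938 (-): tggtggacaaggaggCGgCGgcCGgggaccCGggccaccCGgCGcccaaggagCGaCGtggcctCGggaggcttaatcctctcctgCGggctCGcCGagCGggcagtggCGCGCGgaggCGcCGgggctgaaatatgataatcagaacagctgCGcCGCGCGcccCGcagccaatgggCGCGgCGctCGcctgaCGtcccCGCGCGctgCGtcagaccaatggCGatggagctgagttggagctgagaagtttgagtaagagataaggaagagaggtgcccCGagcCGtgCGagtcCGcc

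The Isl1 window held 37 CpG at 69.0% GC, whereas the receptor windows held between 0 (Olfr544, 51.7% GC) and 2 (Olfr16). The Isl1 promoter had a mean log2 immunoprecipitate/input ratio of 3.67 on the wild-type array, against 3.52 for Phc2 L307R. Olfr365 stood at -0.32 in wild type and 0.32 in Phc2 L307R, Olfr1275 (26.0% GC) at -0.18 and 0.32, and Olfr16 at -0.12 and 0.07. Olfr544, the most GC-rich of the receptor windows printed, stood at -0.46 and -0.55. Here and below a promoter's ratio is the mean over all its probes of the log2 ratio, centred on the median of all probes of the array, so 0 is the array's middle.

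Short sequence motifs were counted on both strands in the same windows, and none of the 3 contains another. TAATTA, the core bound by many homeodomain factors, was present in 17.8% of receptor windows and 5.29% of all windows. TATAAA was present in 39.8% and 13.6%. CCCNNGGGA, the letters of the Olf/Ebf factor site, was present in 2.74% of receptor windows and 6.56% of all, and in 11.5% of the 96 receptor windows whose record is over 2000 bases long. These shares describe letters and were not compared at equal base composition.

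Receptor promoters had low Ring1B ratios in wild-type fibroblasts, below the median of all promoters (0.07), and across the family the ratio was slightly higher in Phc2 L307R fibroblasts, where the median of all promoters was 0.05. Their median ratio was -0.13 in wild type (range -0.68 to 0.31) and 0.11 in Phc2 L307R (range -0.65 to 0.88). The median difference, Phc2 L307R minus wild type, was 0.23 on the log2 scale, or 1.17-fold, with the middle part of the family (25th to 75th percentile) between 0.13 and 0.33. Of 824 promoters, 756 (91.7%) were higher in Phc2 L307R, against 38.9% of all 17412 promoters, whose median difference was -0.05. The wild-type ratio was above 0 at 114 receptor promoters (9980 of all 17412) and the Phc2 L307R ratio at 577 (9800 of all).

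The difference was broad and small at each promoter. Only 14 of 824 receptor promoters were at least 1.5-fold higher in Phc2 L307R, where 0.224% of all promoters passed the same size rule. None was at least 1.5-fold lower, where 0.781% of all promoters were. No receptor promoter reached a log2 ratio of 1 in either genotype, while 763 promoters of the whole array set did in wild type and 644 in Phc2 L307R. The 2 array designs share 0 probes and gave receptor medians of 0.23 (401 promoters) and 0.24 (423 promoters). The 44 names with fewer than 5 probes had a median difference of 0.17.

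The difference was larger in the immunoprecipitate channel than in the input channel. Relative to the array median of that channel, the receptors' immunoprecipitate signal was higher in Phc2 L307R at 797 of 824 promoters, with a median difference of 0.30 (1.23-fold). Input signal was higher at 510, with a median of 0.04. Over all promoters these medians were -0.01 and 0.01. The immunoprecipitate signal was higher at 8334 of all 17412 promoters and the input signal at 9512. Across the 824 receptor promoters, the ratio difference correlated with the immunoprecipitate difference at Pearson r = 0.51 and with the input difference at -0.49. The ratio is made from both channels. Within 4 equal bands of promoters ranked by wild-type input signal, the receptors' median ratio difference was 0.30 in the dimmest (153 promoters). It was 0.24 and 0.23 in the middle bands and 0.19 in the brightest (246 promoters). Other promoters stayed between -0.05 and -0.06.

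**Figure D1:**
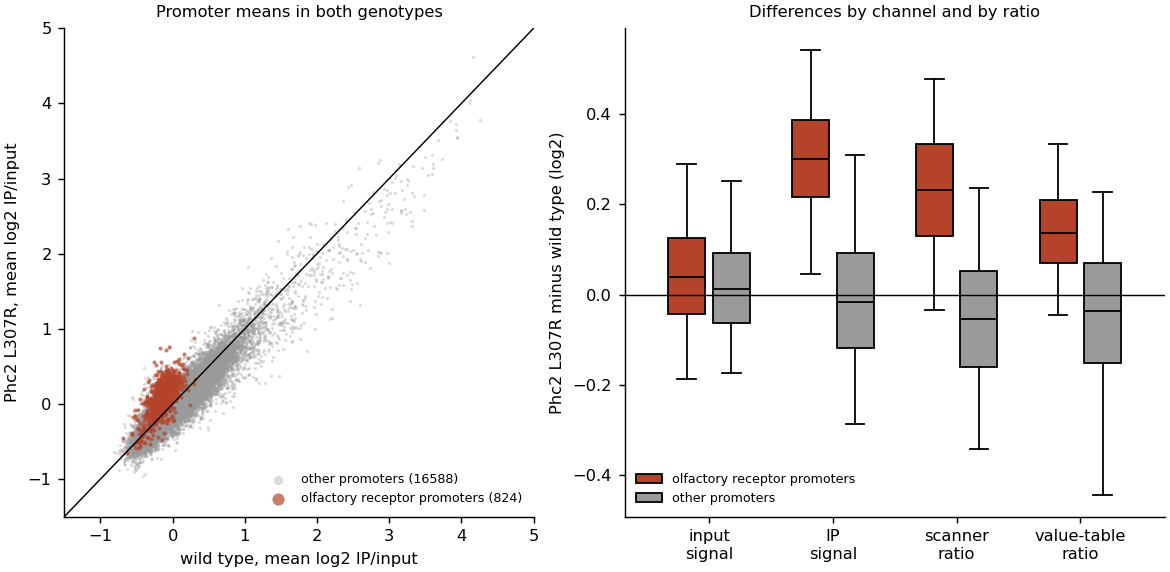
Left, each promoter's mean log2 immunoprecipitate (IP)/input ratio in wild type (x) and Phc2 L307R (y), with 824 receptor promoters in red, 16588 others in grey and the line of equal values. Right, Phc2 L307R minus wild type (log2) for the input channel, the IP channel, the scanner ratio and the ratio of the deposited value tables; boxes span the 25th to 75th percentile with the median, whiskers the 5th to 95th. Receptors lie above the line near the origin, and their IP box (median 0.30) stands above 0 while their input box (median 0.04) is near 0.

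Several facts of the arrays bear on every value here. Scan days differed between the genotypes on both designs, so the day of scanning and the genotype cannot be told apart. At receptor probes 88.8% (design 1) and 91.1% (design 2) of wild-type input spots were well above background, but 79.0% and 82.0% of those in Phc2 L307R, and at least 97.9% of immunoprecipitate spots in both. When dim probes, in either channel of either array, were left out, 798 receptor promoters remained, with a median difference of 0.18. The median difference of all promoters was also lower under this filter, at -0.11 in place of -0.05. The wild-type values also exist in a second version, the deposited value tables, whose Phc2 L307R columns hold the same scanner ratios at nearly all probes but whose wild-type columns do not. With those tables the receptors' median difference was 0.14 (1.10-fold) and 742 of 824 were above 0, against 43.3% of all promoters. Both versions use the same Phc2 L307R arrays, so they are not independent.

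At single probes, 69.1% of the 19282 receptor probes were higher in Phc2 L307R, against 44.8% of 462572 probes with a gene name. The SD of the difference over receptor probes was 0.49, about the same as within a promoter (median SD 0.44), so a promoter mean over few probes is loose. Neighbouring probes of one receptor promoter correlated weakly, at Pearson r = 0.20 for the difference, 0.16 for the wild-type ratio and 0.31 for the Phc2 L307R ratio over 18414 neighbouring pairs, which share an array and much of their fragments.

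Of the 14 promoters past the 1.5-fold rule, 5 lay on chromosome 2 and 4 on chromosome 7, and 8 had fewer than 10 probes although only 92 of the 824 did. Because the 14 were picked on the ratio, the choice alone favours low input and high immunoprecipitate in Phc2 L307R. Input signal was lower in Phc2 L307R at 13 of the 14 (median difference -0.24), and immunoprecipitate signal was higher at all 14 (median 0.49). In the value tables all 14 were above 0 and 1 passed the rule, where 0.0517% of all promoters passed. With dim probes left out, 2 receptor promoters in all passed it, where 0.0293% of all promoters did.

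Olfr1083 on chromosome 2 had the highest difference, from -0.17 to 0.75, a difference of 0.92 (SD over 6 probes 0.47). Its RefSeq symbol is Olfr1083-ps, a pseudogene name. Its input signal differed by -0.71 and its immunoprecipitate signal by 0.21. Olfr611 of the class I cluster went from -0.06 to 0.77 (0.82, SD over 7 probes 0.54), and Olfr494 of chromosome 7 from -0.26 to 0.56 (0.82, SD over 7 probes 0.26). All probes of these 3 promoters were higher in Phc2 L307R, but with dim probes left out none of the 3 kept enough probes for a value. In the order named, their differences were 0.55, 0.65 and 0.37 in the value tables. They were 0.12, 0.31 and 0.35 with normexp, and 0.77, 0.61 and 0.87 with the median over probes, settings listed with the processing below. Olfr1203 (0.75, 13 probes), Olfr365 (0.64, 8 probes), Olfr694 (0.63, 15 probes), Olfr847 (0.63, 27 probes) and Olfr823 (0.63, 8 probes) were also among the 10 highest, as was Olfr969, given with its probes below. Olfr1288, on chromosome 2, also one of the 10, is the best covered of those above 0.7, at -0.16 in wild type and 0.56 in Phc2 L307R (0.72, SD 0.33), with 24 of 25 probes higher. In the value tables its difference was 0.23, with a wild-type value 0.49 above the wild-type scanner ratio.

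After Olfr913, described below with its probes, the lowest differences were smaller in size than the highest. Olfr223 on chromosome 11 went from -0.11 to -0.38 (-0.27, SD over 26 probes 0.28), Olfr95 of the chromosome 17 cluster from 0.25 to -0.02 (-0.26, SD over 25 probes 0.55), and Olfr470 and Olfr750 each differed by -0.24. The value tables gave -0.18, -0.32, -0.15 and -0.12 for these 4.

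Probes along a promoter showed where single receptors stood out. Runs of at least 3 successive probes, each at least 1 log2 unit higher in Phc2 L307R, were counted after the promoter values had been seen. They were present at 23 of 824 receptor promoters (2.79%), against 0.569% of all promoters, and 1 receptor promoter (0.121%) had such a run in the lower direction, against 1.16%; that one, Olfr913, rests on dim probes, as given below. The 23 runs spanned 292 to 1506 bp on 9 chromosomes, 6 of them on chromosome 2, 6 on chromosome 7 and 4 on chromosome 9, and 3 belonged to promoters that passed the 1.5-fold rule. The value tables were above 0 at all 23 and at least 1 at 6. The runs were picked on the ratio, which alone favours low input and high immunoprecipitate; input was lower at 23 of 23 (median -0.53) and immunoprecipitate higher at 23 of 23 (median 0.76). Of their 80 probes, the input was well above background at 64 in wild type but at 27 in Phc2 L307R, and at 1 of the 23 runs at every probe in both channels and genotypes, so the size of these ratios is loose.

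The longest run was at Olfr957 on chromosome 9. There, 7 successive probes over 1506 bp (chr9:39266144-39267649, build not given) averaged 0.97 in wild type and 2.35 in Phc2 L307R, a difference of 1.38 that ranged from 1.05 to 1.99 over the probes. The immunoprecipitate, well above background at all 7 probes in both genotypes, was 1.14 higher. The input differed by -0.27 and was well above background at 5 of the 7 in wild type and 2 in Phc2 L307R. The other 13 probes of the promoter averaged -0.06 and 0.08. The value tables differed by 0.60 over the run, with 6 of 7 probes above 0. Over the whole promoter Olfr957 stood at 0.30 in wild type, the third highest of the family, and at 0.88 in Phc2 L307R. Olfr969, in the same cluster, had a comparable step, with 4 probes over 769 bp (chr9:39541306-39542074) at -0.19 in wild type and 1.64 in Phc2 L307R (difference 1.82, and 1.26 in the value tables), while its other 6 probes differed by 0.14 (SD 0.12). Its Phc2 L307R input was well above background at 2 of the 4 probes, and with dim probes left out the whole promoter differed by 0.57 in place of 0.81.

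Olfr913, with the lowest difference of the family (-0.33, SD over 28 probes 1.01), was low over part of its length only. At 6 successive probes over 911 bp (chr9:38345563-38346473, build not given) both channels were well above background in wild type at all 6 and in Phc2 L307R at none, so only bounds can be given there. Set against the lowest Phc2 L307R signal that was well above background on that array, the input was at least 2.34-fold lower in Phc2 L307R than in wild type and the immunoprecipitate at least 6.77-fold lower, and a ratio of the channels has no meaning at these probes. Without them, the other 22 probes gave a difference of 0.13 (SD 0.41), on the other side of 0 from the whole promoter, and with dim probes left out the promoter differed by 0.07. It was the only receptor promoter with at least 3 successive probes at least 1 log2 unit lower in both channels, where 0.0517% of all promoters had such a run. None had one higher in both channels, where again 0.0517% of all did. What the low signal in both channels stands for was not tested.

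**Figure D2:**
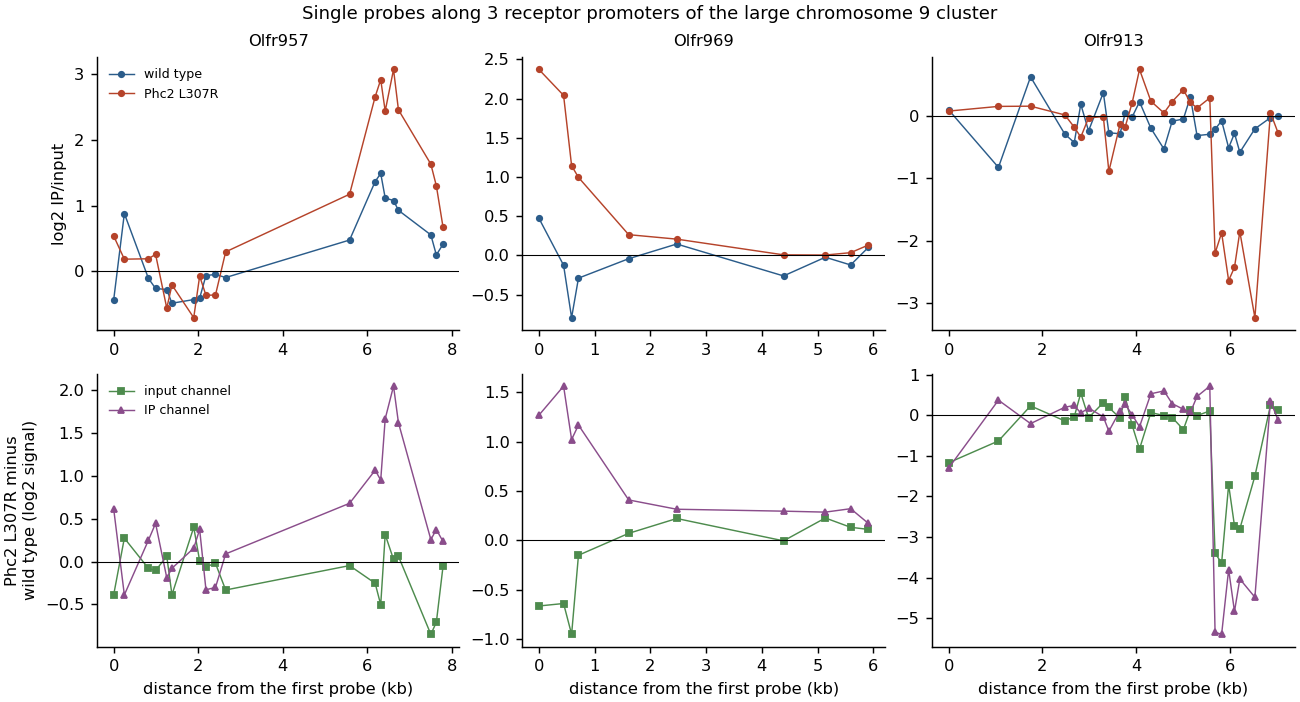
Probes of Olfr957, Olfr969 and Olfr913 by distance from the promoter's first probe (kb). Top, log2 IP/input ratio in wild type (blue) and Phc2 L307R (red); bottom, Phc2 L307R minus wild type (log2 signal) in the input channel (green) and the IP channel (purple). At Olfr957 and Olfr969 the red line rises over 7 and 4 successive probes with the IP channel, and at Olfr913 both channels drop at 6 successive probes that were not well above background in Phc2 L307R.

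Of the 5 receptors with the highest wild-type ratios, Olfr957 and Olfr95 are given above, and the other 3 differed little between genotypes. Olfr94 of the chromosome 17 cluster stood at 0.31 in wild type and 0.34 in Phc2 L307R, Olfr837 at 0.30 and 0.26, and Olfr47 at 0.21 and 0.18, with SDs of the difference over probes from 0.39 to 0.60. The lowest wild-type ratios were those of Olfr557 (-0.68, then -0.45), Olfr523 (-0.63, then -0.65) and Olfr1337 (-0.56, then -0.42).

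Receptors that have been studied singly spanned the family. Olfr2, the octanal receptor known as I7, went from -0.30 to 0.07 (0.37, SD over 19 probes 0.38), and Olfr151, known as M71, from -0.10 to 0.19 (0.29, SD over 25 probes 0.48). Olfr16, known as MOR23 and also present in sperm, differed by 0.19 (SD over 37 probes 0.49). Olfr1508 differed by 0.35 (SD over 18 probes 0.64). Among receptors with known roles outside the nose, Olfr78, of the carotid body and blood vessels, differed by 0.39 (SD over 9 probes 0.49), Olfr558 by 0.03 (SD over 30 probes 0.41) and Olfr544 by -0.09 (SD over 28 probes 0.49). Each of these SDs is at least as large as the difference beside it. They give the spread of single probes and not the error of a promoter mean. Olfr17, Olfr73, Olfr160 and Olfr1507 were not analysed here.

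By position, receptor promoters whose neighbours lay within 500 kb were joined into 53 clusters, 32 of them with at least 5 promoters (785 promoters in all). The cluster median of the difference was above 0 in 31 of the 32, from -0.09 to 0.44, and in 32 of 32 with the value tables, from 0.04 to 0.25. The immunoprecipitate median was higher in Phc2 L307R in 32 of 32 clusters (0.06 to 0.44) and the input median in 27. None of these 32 had a wild-type median ratio above 0, while 21 had one in Phc2 L307R. Of the 21 smaller clusters, 13 had a median difference above 0. Their 39 promoters had a median difference of 0.03, against 0.24 in the larger clusters, and a median GC content of 42.3%. The value-table medians were 0.10 and 0.14.

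Among clusters of at least 5 promoters, the highest median was on chromosome 2. At chr2:111032142-111959246 (18 promoters) the median went from -0.04 to 0.32 and all 18 were higher (median difference 0.44, range 0.07 to 0.72). The next were close to each other, with medians of 0.33 on chromosome 16 (chr16:58701274-59306816, 26 of 26 higher), 0.33 in the large chromosome 2 cluster and 0.32 on chromosome 9 (chr9:18503508-20053056, 27 of 28 higher). In that large cluster, chr2:85376181-89103613, all 79 were higher, from 0.02 (Olfr1020) to 0.92 (Olfr1083). These positions are those of the array files, for which the sources used here name no genome build.

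The largest cluster, chr9:37478151-39938637, held 95 receptor promoters, 90 of them higher, with a median difference of 0.26; Olfr969 was its highest and Olfr913 its lowest. On chromosome 19, 54 of 57 were higher (0.25), from -0.06 for Olfr1475 to 0.40 for Olfr1471. In the larger chromosome 10 cluster, chr10:128389753-129619438, 50 of 51 were higher (0.28), from -0.16 for Olfr9 to 0.63 for Olfr823. In the chromosome 17 cluster, 37 of 40 were higher (0.29), from Olfr95 at -0.26 to Olfr137 at 0.45. The class I cluster, chr7:102349550-105216709, had 64 of 70 higher (0.21), from Olfr649 at -0.14 to Olfr611 at 0.82.

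Few clusters of at least 5 promoters were flat. The 6 promoters at chr4:43719500-43877816 had medians of -0.33 (wild type) and -0.35 (Phc2 L307R), with 1 of 6 higher (median difference -0.09). The 8 at chr1:94311218-94452823 had -0.38 and -0.37, with 4 of 8 higher (0.01), and the 7 on chromosome 15 had -0.37 and -0.33 (0.07). Among clusters of that size, these 3 also had the highest GC content, 48.3%, 51.3% and 49.3%. In the value tables their median differences were 0.04, 0.14 and 0.12. The next lowest cluster, chr14:50955615-51391424, had a lower GC content of 40.7%, with 5 of 8 higher and a median difference of 0.09.

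**Figure D3:**
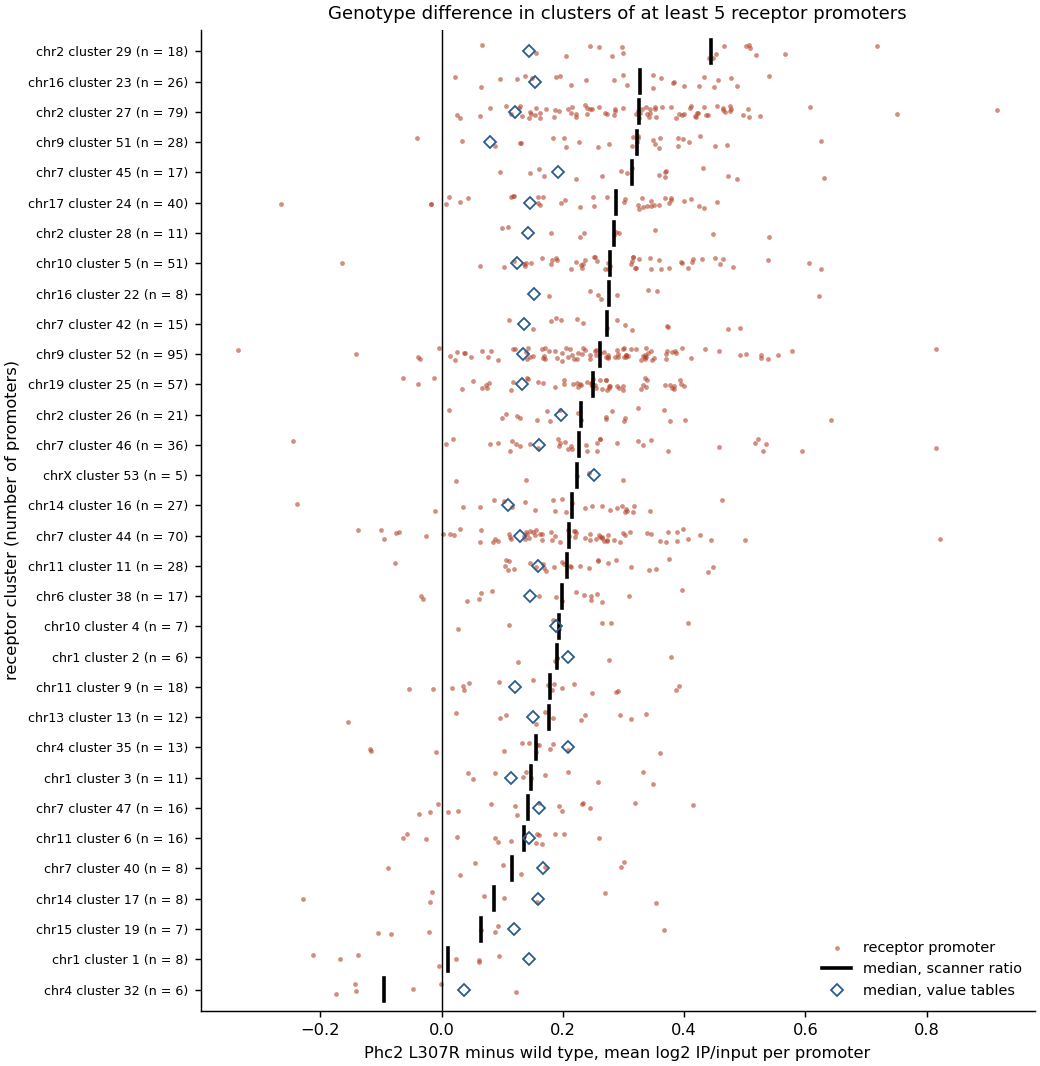
Phc2 L307R minus wild type, mean log2 IP/input ratio per receptor promoter (red points), in the 32 clusters of at least 5 promoters, ordered by the cluster median (black bar), with the median of the deposited value tables as a blue diamond. The number of promoters stands beside each cluster. All but the lowest bar lie above 0, and all 32 diamonds do, within a narrower range (0.04 to 0.25) than the bars.

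Neighbouring receptors were alike mainly through their cluster. Over 771 pairs of neighbouring receptor promoters the differences correlated at r = 0.24, and at r = 0.04 after each cluster's median was subtracted; the pairs share an array. The SD of the difference was 0.10 between clusters and 0.14 within them. Non-receptor promoters lying inside the 32 clusters, 80 in all from 19 clusters, had a median difference of 0.05, with 49 higher, and a median GC content of 49.9%. The 454 within 500 kb outside them had -0.05, with 172 higher, at 57.2% GC.

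The size of the difference went with base composition in the scanner ratios but not in the value tables. Across the 32 clusters, the median GC content (30.5% to 51.3%) correlated with the median difference at Pearson r = -0.81, with the wild-type median at -0.86 and with the value-table difference at 0.06. Across 691 single promoters r was -0.44 for the difference, -0.39 for the wild-type ratio, -0.58 for the Phc2 L307R ratio and 0.01 for the value-table difference. The points share arrays, hybridisations and neighbours, so these are descriptions. Receptor promoters under 35% GC differed by a median of 0.26 (320 promoters), those from 35% to 40% by 0.24 (188), from 40% to 45% by 0.16 (113), from 45% to 50% by 0.08 (48) and from 50% to 60% by -0.01 (22). The value tables gave 0.12, 0.15, 0.16, 0.16 and 0.12 in these bands.

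Other promoters of low GC content also had medians above 0, at 0.23 under 35% (115 promoters), 0.16 from 35% to 40% (283) and 0.05 from 40% to 45% (660). A window was at hand for only 77.5% of the 16588 other promoters, under the 80% set for such a check, partly because many names have no entry in the sequence table, so the comparison with receptors at equal GC content counts as void and these values stand only for the promoters matched. The part of base composition in the receptors' difference was not tested further.

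**Figure D4:**
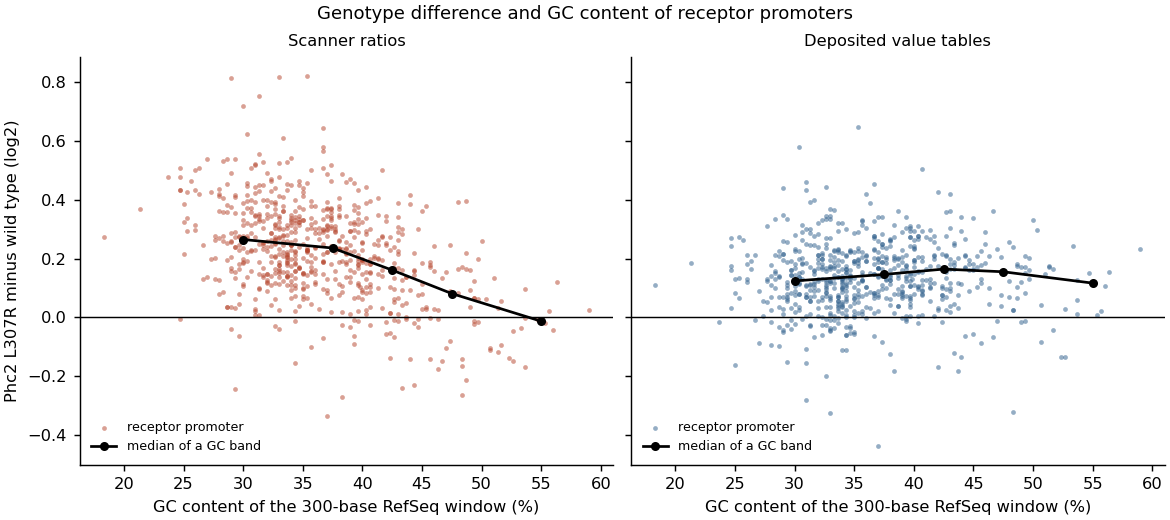
Phc2 L307R minus wild type (log2) for 691 receptor promoters against the GC content (%) of their RefSeq window, from the scanner ratios (left, red) and the deposited value tables (right, blue). Black points are medians of GC bands, placed at mid-band (the lowest band at 30%). The black line falls from 0.26 to -0.01 on the left and stays between 0.12 and 0.16 on the right.

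Both receptor classes and all larger families had medians above 0. The mouse MOR nomenclature separates class I receptors, which resemble those of fish, from class II. The 70 class I promoters had a median difference of 0.21 (64 higher) and the 732 class II promoters 0.24 (673 higher). On chromosome 7, which carries all of class I tested here, the class II median was 0.23 over 92 promoters. Of 196 MOR families, 30 had at least 8 promoters, and all 30 medians were above 0. The lowest were MOR262 on chromosome 4 (0.01, 10 promoters, 5 higher) and MOR103 on 4 chromosomes (0.08, 16 promoters, 11 higher). The highest were MOR245 on chromosome 2 (0.47, 10 of 10 higher) and MOR184 (0.39, 8 of 8) and MOR182 (0.38, 9 of 9) on chromosome 16. Families are largely confined to single clusters, so family and cluster are not separate evidence. The 33 shared or pseudogene names with Olfr in them, outside the rule, had a median difference of 0.26.

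Other chemoreceptor families were placed beside the olfactory receptors without a test. Vomeronasal receptor promoters, of pheromone-sensing neurons, had values near theirs, with a median GC content of 35.3% and a median difference of 0.27 (-0.18 to 0.08, all but 2 of 103 higher). Taste receptors differed by 0.18 (27 of 36 higher). Trace amine-associated receptors, most of them expressed by a few sensory neurons of the nose, differed by 0.02 (8 of 15 higher). Keratin and keratin-associated promoters, another clustered family, differed by 0.03 (41 of 67 higher) at 45.3% GC. These families lay closer together in the value tables, where olfactory receptors differed by a median of 0.14. There the medians were 0.18 for vomeronasal receptors (95 of 103 higher) and 0.11 for taste receptors (28 of 36). Trace amine-associated receptors had 0.09 (11 of 15) and keratins 0.10 (48 of 67). LIM homeobox promoters, with a wild-type median of 2.56, differed by -0.24 over 8 promoters, 1 of them higher. Their fall was larger in the value tables, with a median difference of -1.22 and 0 of 8 higher.

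Genes that serve the receptors were measured too. Of 18 genes of olfactory signalling and receptor trafficking, 16 were measured, with a median ratio of -0.24 in wild type and a median difference of -0.07, 6 of 16 higher and none past the 1.5-fold rule in either direction, which is close to all promoters (median -0.05, 38.9% higher). Cnga2, a subunit of the olfactory cyclic nucleotide-gated channel, went from -0.41 to -0.26, and Omp, the olfactory marker protein of mature sensory neurons, from -0.27 to -0.35. Of 18 regulators linked to receptor choice, 17 were measured, with a median ratio of 0.57 in wild type and a median difference of -0.13, 2 of 17 higher, none past the rule upwards and 1 downwards, where 0.781% of all promoters passed. That one was Ebf2, a transcription factor of the Olf/Ebf family, from 2.62 to 1.90 (-0.71, SD over 46 probes 0.55). Lhx2, a LIM homeodomain factor needed for receptor expression, went from 2.34 to 2.07, Ebf3 from 2.16 to 2.04 and Emx2 from 1.84 to 1.61. These 3 stood at the 99.3, 99.2 and 98.8 percentiles of all wild-type promoters, while Lbr, the lamin B receptor whose absence goes with receptor gene aggregation in sensory neurons, stood at 0.57 and 0.51. Falls were larger in the value tables, at -1.82 for Ebf2, -1.16 for Lhx2, -1.13 for Ebf3 and -1.13 for Emx2. Over all 17 regulators the value-table median difference was -0.11, with 2 higher.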

How the data were processed

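The members, the gene lists and the rules used here were chosen with earlier results of these data known. Scanner files hold spot intensity values quantified with Agilent Feature Extraction 10.7.3.1 (background subtraction, detrending and linear dye normalization) and for every spot a log10 ratio (immunoprecipitate, Cy5, over input, Cy3), per the file headers. The authors' value tables are log10 ratios too, judged from the Phc2 L307R columns, which at nearly all probes equal the scanner ratios apart from a constant; the sources used here do not say how the wild-type columns were made. All numbers were turned to log2 and centred on each array's median, after control and outlier-flagged spots were left out (7 receptor probes). Channel signals were treated likewise. A promoter is the mean over all probes bearing its name, at least 5; 3 receptor names spanned over 15000 bp. A size rule of 1.5-fold was used, with no p-value, since each promoter has 1 array per genotype. The SDs given are spreads over single probes, and precision is limited by having 4 arrays. Clusters join promoters at most 500 kb apart.

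The named promoters are the 10 highest and 5 lowest differences, the 5 highest and 3 lowest wild-type means, the extremes of each cluster of at least 40 promoters, and studied receptors; promoters named for their runs of probes were chosen after their values were seen. RefSeq symbols were the same for 834 names, found through a synonym for 27 and unmatched for 7, and the chromosome was the same for 861 of 861. RefSeq coordinates (GRCm38.p6) go only with the printed sequences. Alternatives were the 3 neighbouring probes within 2000 bp whose mean over the genotypes was highest, the median over probes, normexp with an offset of 50, loess, equal spread of the arrays, the value tables, probes well above background, wider membership, single array designs, a 2-fold rule and cluster gaps of 250 kb or 1 Mb; a minimum of 10 probes was added after seeing the data. The steps were tested on simulated data. Python 3.11.15 (numpy 2.4.6, pandas 2.3.3, matplotlib 3.10.9) and R 4.3.3 (limma 3.58.1) were used.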

Additional observations from a re-analysis of the deposited data

How the results depend on the processing

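The receptors' median difference was above 0 under all 11 settings tried for it. It was 0.11 with normexp and 0.14 with the value tables, against 0.23 as reported, and between 0.18 and 0.33 under the other 9. The count of promoters at least 1.5-fold higher was less stable. Against 14 as reported (where 0.224% of all promoters passed), it was 218 with the window of 3 probes (7.93% of all) and 0 with normexp (0.0115% of all). It was 1 with the value tables (0.0517% of all) and 2 with probes well above background (0.0293% of all). It was 4 on array design 2 alone, 0 at 2-fold and 6 with at least 10 probes, for which no share of all promoters is at hand. The count of promoters at least 1.5-fold lower was 9 with the window (where 9.70% of all promoters passed) and 0 under each other setting. Among those, the share of all promoters lower was 3.20% with the value tables, 1.05% with probes well above background and 0.465% with normexp. Clusters with a median above 0 numbered between 27 and 32, of 28 or 32. Among the 35 named promoters, no called one changed sign; the value tables turned the sign of 5 of 35, the window of 9 and normexp of 4.

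No paired analysis was possible because title numbers 1 and 2 stand for array designs with 0 probes in common, so they are no replicate numbers. No promoter keeps a value in both genotypes when an array is left out. The causes of these changes were not tested.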
